A study of Saccharomyces cerevisiae with 16 samples.

Results

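The comparison described here is the deletion of CDK8 in yeast cells that carry the FCP1 truncation 1:609. It sets the strain whose label adds +cdk8-del to fcp1-trunc-1:609-tag-flag against the strain without that addition, shortened here to 1:609 cdk8-del and 1:609. The arrays were chosen by these genotype labels alone, which gave 4 of the 16 arrays in the series, 2 for each strain. Both strains carry the same FCP1 allele, which the label describes as residues 1 to 609 of the protein with a FLAG tag, so the difference between them is labelled as the deletion only. The truncations 1:666 and 1:594 were also made with and without cdk8-del, and 1:713, the longest truncation, was made without it. A further strain with CDK8 is labelled fcp1-mut-tag-flag, with no residues given. Its arrays entered the model shared by all 16 arrays and the checks over all strains, and its levels are not described. All of these carry the FLAG tag as well. The labels name no oxidant or drug, and cultures were grown to mid-log phase in multiwell plates. Each array compared a strain with the same reference pool, for which the labels give no genotype, and RNA of the strain and of the pool was isolated by different protocols. Arrays lettered a had the strain in Cy3, and arrays lettered b had it in Cy5.

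FCP1 encodes an essential phosphatase that acts on the phosphorylated tail of the largest RNA polymerase II subunit, its C-terminal domain, which allows the enzyme to be used again after transcription. CDK8, listed on the arrays under its other name SSN3, encodes the kinase of a detachable module of Mediator, the complex that links transcription factors to the polymerase. In budding yeast the kinase also phosphorylates single transcription factors, among them Gcn4, Ste12 and Msn2, and its module is best known for holding down genes that respond to stress and to nutrients.

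Values are log2 ratios of strain over reference pool unless stated otherwise, and a difference is 1:609 cdk8-del minus 1:609 on that scale, with its standard error from limma over n = 2 arrays a strain. A gene was called where its fold was above 1.7 and its p, adjusted by the Benjamini-Hochberg method, was under 0.01. Over the 4 arrays the strains had median spot signals of 384 to 922, with a local background between 44 and 64, and the strain's signal exceeded background for 96.9% to 98.5% of gene probes. Arrays carry no count of molecules, so the number of arrays limits the precision. Nothing in the labels says that a and b are separate cultures, so the p-values cover array-to-array spread and may cover no more. In whole cultures, a change in the RNA of all cells and a change in the share of responding cells cannot be told apart.

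The deleted gene was examined first. SSN3 (YPL042C) read -1.90 and -1.48 on the a and b arrays of 1:609 cdk8-del, against -0.30 and -0.01 in 1:609. The spots were not above background on either array of the deletion strain and were above it on both arrays of 1:609, so the fold is given as an approximate bound. By the strain channel alone this bound was 2.6-fold lower in 1:609 cdk8-del, which is not a strict limit (adjusted p of SSN3 = 9.09e-08 in limma on the ratios). The genes of the remaining kinase module subunits were not called: the cyclin gene SSN8 differed by 0.12 ± 0.05, SRB8 by -0.11 ± 0.04 and SSN2 by 0.07 ± 0.05. None of the 21 core Mediator genes was called either, with a median difference of -0.02. Of the genes around SSN3, NOP4 lies next to it and differed by -0.32 ± 0.12 (adjusted p = 0.0621). VPS16 and ISM1, each 2 genes away, differed by -0.04 and -0.01. MRX11, next to SSN3 on the other side, had no value.

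FCP1 (YMR277W) was low against the pool in both strains, at -3.09 and -3.29 in 1:609 cdk8-del and -3.29 and -3.69 in 1:609. The difference of 0.30 ± 0.08 missed the call (adjusted p = 0.0131). By level FCP1 was also low in 1:594 (-2.67 and -2.87) and 1:594 cdk8-del (-3.18 and -3.69). It was nearer the pool in 1:666 (-0.15 and -0.39), 1:666 cdk8-del (-0.16 and -0.38) and 1:713 (-0.12 and -0.50). The sources used here do not give the site in the transcript that the probe reads, so less transcript and loss of the probed stretch cannot be told apart. Among the marker genes, LYS2 was high in both strains (3.13 and 2.83 in 1:609 cdk8-del, against 3.39 and 3.41 in 1:609) and MET17, which encodes an enzyme of methionine synthesis, was low in both (-4.74 and -4.54, against -5.01 and -4.82). None of the 8 marker genes was called, and their differences ran between -0.42 ± 0.09 for LYS2, which passed the p limit but not the fold limit (adjusted p = 0.00332), and 0.28 ± 0.12 for MET17.

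Of the 6388 gene probes, 149 were called higher in 1:609 cdk8-del, or 2.33% of those tested, and 20 were called lower, or 0.313%, which makes 2.65% in either direction. Rises thus made up 88.2% of the calls. Of the called probes, 76 rose by more than 2-fold and 13 by more than 4-fold, while 13 fell by more than 2-fold and 2 by more than 4-fold. All 149 and all 20 had arrays of the 2 strains that did not overlap, as did 1417 probes above and 1284 below over the whole array. The letters a and b pair the arrays, and the fit holds them as a block; without the replicate block 104 probes were called, 87 higher and 17 lower, all of them among the 169. Scaled on the external control spots instead of on the typical gene, the median of all probes moved to 0.46 and the calls to 571 higher and 10 lower, so 98.3% were higher, against 88.2% above. The series description says that the spiked controls showed no global change.

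**Figure D1:**
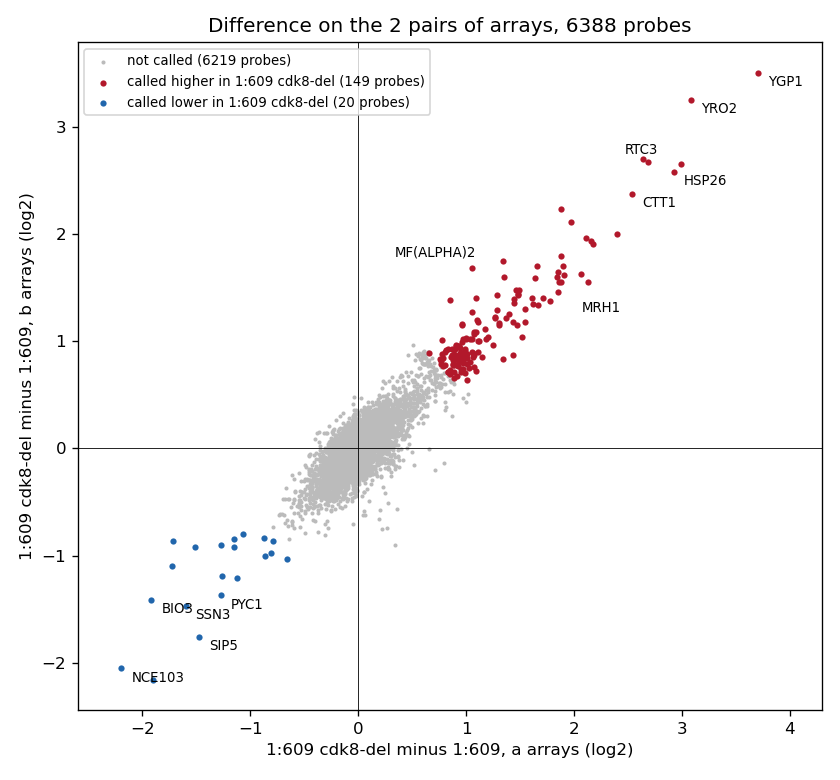
Difference between 1:609 cdk8-del and 1:609 on the a arrays (x axis, log2) and on the b arrays (y axis, log2) for 6388 gene probes. The 149 probes called higher (red) and the 20 called lower (blue) lie along the diagonal at both ends, led by YGP1 at the top right and NCE103 at the bottom left.

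The largest rise was that of YGP1 (YNL160W), which encodes a secreted glycoprotein related to cell wall proteins and is known from stationary and starved cells. It read 0.94 and 1.02 in 1:609 cdk8-del, against -2.77 and -2.48 in 1:609, a difference of 3.61 ± 0.10, or 12.2-fold (adjusted p = 1.16e-09). YRO2 (YBR054W), a plasma membrane protein of the HSP30 family, followed at -0.21 and 0.08 in 1:609 cdk8-del, against -3.30 and -3.17 in 1:609, or 9-fold higher. Both genes were thus far under the pool in 1:609 and near or above it in the deletion strain. RTC3, a stress-induced gene, read 1.58 and 1.36 in 1:609 cdk8-del and -1.42 and -1.29 in 1:609. HSP26, which encodes a small heat shock chaperone, read 2.55 and 2.51 in 1:609 cdk8-del and -0.38 and -0.06 in 1:609. Differences came to 2.82 ± 0.18 for RTC3 and 2.75 ± 0.18 for HSP26, with no overlap of arrays in either gene.

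The next 6 rises were between 4.13-fold and 6.4-fold. They include 3 enzymes of sugar and reserve carbohydrate use: HXK1, a hexokinase (1.69 and 1.74 in 1:609 cdk8-del, against -0.998 and -0.93 in 1:609), GPH1, which releases glucose from glycogen (1.61 and 1.72, against -1.03 and -0.98), and PGM2, a phosphoglucomutase (1.38 and 1.48, against -0.78 and -0.45). CTT1, the cytosolic catalase that breaks down hydrogen peroxide, read 2.82 and 2.68 in 1:609 cdk8-del and 0.28 and 0.31 in 1:609, a rise of 2.46 ± 0.15. ALD3, an aldehyde dehydrogenase, rose by 2.20 ± 0.13, and CWP1, a mannoprotein of the cell wall, by 2.06 ± 0.11. In these genes the 1:609 arrays lay on either side of the pool, while every deletion array lay above it by more than 1 log2 unit.

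**Figure D2:**
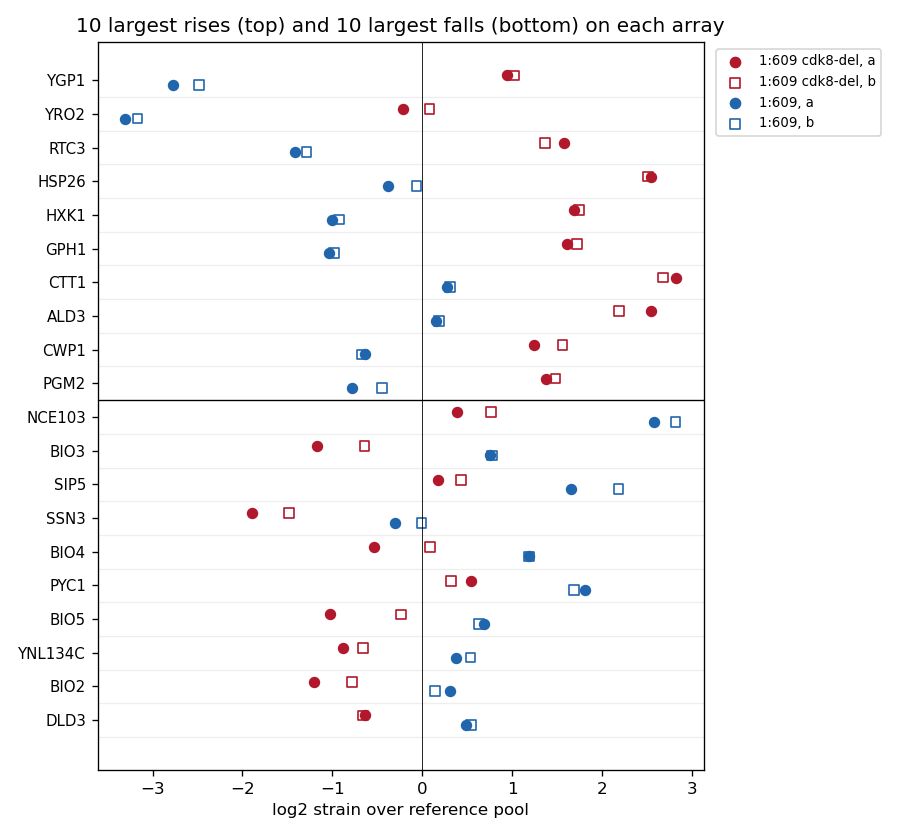
Log2 ratio of strain over reference pool (x axis) on each of the 4 arrays for the 10 genes with the largest rises, above the line, and the 10 with the largest falls, below it; red is 1:609 cdk8-del and blue is 1:609, with filled circles for a arrays and open squares for b arrays. In every gene the 2 red points and the 2 blue points stand apart, by 3.61 on average for YGP1 and by -2.12 for NCE103.

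Genes of the general stress response, which the transcription factors Msn2 and Msn4 switch on under heat, oxidation, salt and starvation, were prominent among the rises. Of the 45 probes of this list, 31 were called higher and 0 lower (26 higher without the replicate block), against 2.33% of all probes, and the list's median difference was 1.31 where that of all probes was -0.003. This and the other lists were chosen with earlier results of these data known, so their counts are not independent of the data. By array, the list's median level was 0.97 and 0.82 in 1:609 cdk8-del, against -0.24 and -0.12 in 1:609. SPI1, a cell wall protein, rose by 2.04 ± 0.21, MSC1 by 1.51 ± 0.15, and HSP12, a small protein that steadies membranes, by 1.75 ± 0.19. HSP12 read 2.82 and 2.89 in 1:609 cdk8-del and 0.96 and 1.25 in 1:609, so it was above the pool in both strains. The called members ran from 0.85 for HSP104 to 3.61 for YGP1. MSN4, which encodes one of the factors and is not in the list, rose by 1.24 ± 0.07, at 1.05 and 1.10 in the deletion strain and -0.22 and -0.12 in 1:609. GPD1, the first enzyme of glycerol synthesis, rose by 1.32 ± 0.07, and the glycerol phosphatase gene GPP2 by 1.31 ± 0.07, though GPP2 lost its call without the replicate block (adjusted p = 0.0529). The list did not move as one: polyubiquitin UBI4 differed by 0.03 ± 0.06, and GRE2, a reductase, differed by -0.39 ± 0.06, under the fold limit.

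Some of the genes that build and use the storage carbohydrates trehalose and glycogen rose as well. Of 21 such genes 8 were called higher and 0 lower (6 higher without the replicate block), against 2.33% of all probes called higher, with a median difference of 0.47. Alongside GPH1 and PGM2 these were TSL1, a subunit of the trehalose synthase complex (1.48 ± 0.13), the glycogen synthases GSY1 (1.08 ± 0.09) and GSY2 (0.94 ± 0.11), the trehalose enzymes TPS1 (0.79 ± 0.10) and TPS2 (1.06 ± 0.08), and UGP1 (0.96 ± 0.10), which supplies activated glucose to both pathways. Enzymes of synthesis and of breakdown are both among the 8. Without the replicate block GSY2 and TPS1 lost their calls (adjusted p = 0.0575 and 0.0269). PGM1, the minor phosphoglucomutase, read -0.04 and 0.04 in 1:609 cdk8-del and 0.40 and 0.40 in 1:609 and was not called.

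Among the chaperones a few genes rose and most did not. Of 30 heat shock genes 5 were called higher, against 2.33% of all probes. They were HSP26, the membrane protein gene HSP30 (1.54 ± 0.20), the Hsp70 gene SSA4 (1.12 ± 0.09), the small chaperone gene HSP42 (0.91 ± 0.14) and the disaggregase gene HSP104 (0.85 ± 0.14). The calls of HSP30, HSP42 and HSP104 were lost without the replicate block (adjusted p = 0.0482, 0.038 and 0.356), so 2 of the 30 were called in that fit, and HSP42 and HSP104 also lost theirs without the a array of 1:609 cdk8-del, which left 3. The Hsp90 genes HSP82 and HSC82, classic Hsf1 targets, differed by -0.23 ± 0.08 and -0.29 ± 0.11 and were not called, and the median of the list was 0.02.

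Antioxidant genes gave a mixed picture. Of 42 genes of the Skn7 and Yap1 oxidative stress list 4 were called higher and 1 lower, and the median difference was 0.04. Over all probes 2.33% were called higher and 0.313% lower. The rises were those of CTT1 and HSP12, of TSA2, a peroxiredoxin (0.92 ± 0.09), and of SOD2, the mitochondrial superoxide dismutase (0.83 ± 0.07). GND1, an NADPH-producing enzyme of the pentose phosphate pathway, fell by 0.89 on the log2 scale, at -1.27 and -0.98 in 1:609 cdk8-del and -0.46 and -0.01 in 1:609; its call was lost without the replicate block (adjusted p = 0.0417). Genes of the thioredoxin and glutathione systems missed the call: TRX2 differed by 0.34 ± 0.10, the thioredoxin reductase gene TRR1 by -0.13 ± 0.05 and the glutathione reductase gene GLR1 by -0.54 ± 0.12.

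Respiratory genes were shifted by small amounts. Of 36 genes for the respiratory chain and the ATP synthase, 2 were called higher, against 2.33% of all probes. They were CYC7, an isoform of cytochrome c (1.42 ± 0.13), and QCR10, a subunit of the cytochrome bc1 complex (0.84 ± 0.09). Counted at an unadjusted p under 0.05 with no fold limit, 31 were higher and 0 lower of 36, against 1362 higher and 1267 lower of 6388 probes. The median difference was 0.37, and the list's median level was 0.64 and 0.68 in 1:609 cdk8-del, against 0.15 and 0.28 in 1:609. The count of calls depends on the settings: it was 1 without the a array of 1:609 cdk8-del, 4 without its b array or without the a array of 1:609, 5 with the deposited ratios and 17 under the scaling on external controls. CYT1, cytochrome c1, at 0.76 ± 0.08 lay just under the fold limit, and HAP4, the activator of respiratory genes, was at 0.71 ± 0.05.

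Sugar uptake and early glycolysis were represented by single genes. HXT6, a high-affinity hexose transporter whose sequence is nearly that of HXT7, read 1.14 and 1.54 in 1:609 cdk8-del and -0.51 and -0.15 in 1:609, a rise of 1.68 ± 0.11. HXT9 and HXT11, a nearly identical pair that one probe may not separate, rose by 1.002 ± 0.05 and 1.07 ± 0.07. Of 21 glycolytic genes, HXK1 and the glucokinase gene GLK1 (1.15 ± 0.11) were called higher, against 2.33% of all probes. HXK2, the hexokinase of cells growing on glucose, was at -0.60 ± 0.08 and not called. ADH2, the alcohol dehydrogenase that consumes ethanol, rose by 0.93 ± 0.06.

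At the cell surface, 5 of 39 cell wall genes were called higher, against 2.33% of all probes. They were CWP1, SPI1, GSC2, a glucan synthase subunit (1.25 ± 0.06), SED1 (1.15 ± 0.11) and TIP1 (0.77 ± 0.08). TIP1 lay so near the fold limit that it lost its call under 4 alternatives. Of the 9 probes listed with YRO2, 4 were called higher, namely YRO2, HSP12, HSP30 and MRH1, against 2.33% of all probes. That list is named for a gene among the largest rises, so its count is not independent of these data. MRH1, a close relative of YRO2, read -1.31 and -1.13 in 1:609 cdk8-del and -3.17 and -2.68 in 1:609, so it rose by 1.70 ± 0.10 and was still under the pool. The proton pump gene PMA1 differed by 0.15 ± 0.06 and was not called. Among drug and polyamine transporters 4 of 25 were called higher, against 2.33% of all probes. They were the polyamine exporter genes TPO4 (1.06 ± 0.08), TPO3 (0.94 ± 0.07) and TPO1 (0.79 ± 0.06) beside HXT11. The proline permease gene PUT4 was not above background on either array of 1:609 and above it on both of 1:609 cdk8-del. It read 1.66 and 1.36 in 1:609 cdk8-del and -0.01 and 0.03 in 1:609, a difference of 1.499 ± 0.13 (adjusted p = 5.12e-06), and no bound on the fold is given because the strain channel alone and the ratio to the pool put it at different values. FRE1, a ferric reductase, read 1.002 and 0.73 in 1:609 cdk8-del and -0.48 and -0.70 in 1:609, though without the replicate block its adjusted p was 0.0148.

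**Figure D3:**
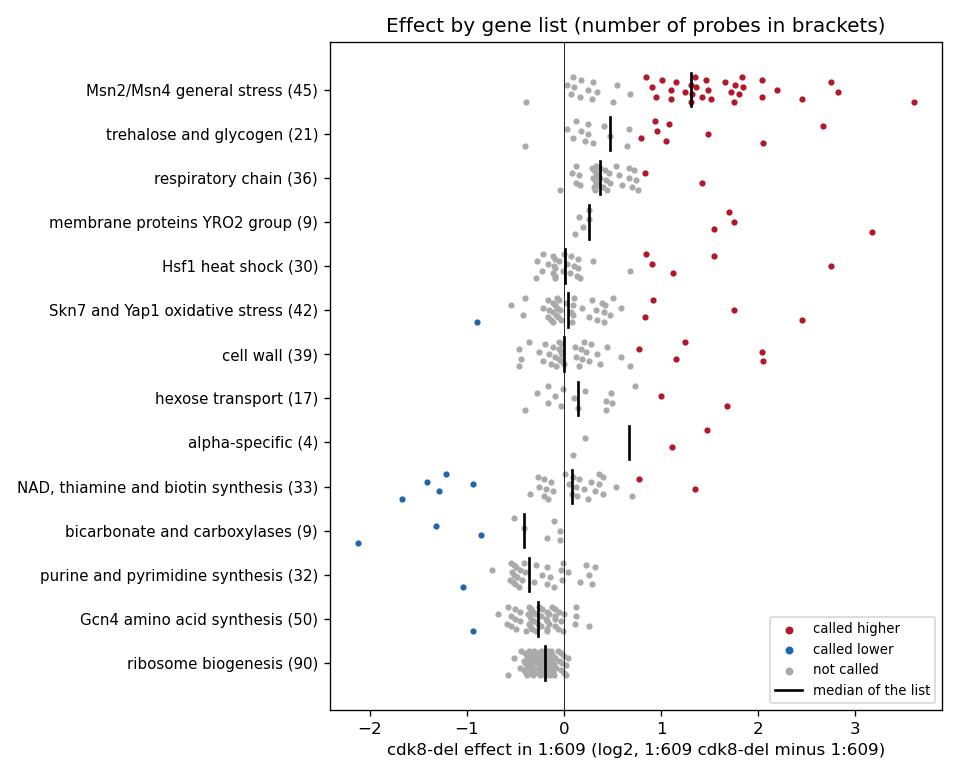
Difference between 1:609 cdk8-del and 1:609 (x axis, log2) for each probe of 14 gene lists (rows, with the number of probes), coloured by the call, with a black bar at each list's median. The general stress list has its median at 1.31 and 31 of 45 probes called higher; the bicarbonate and carboxylase list has its median at -0.41.

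Falls were fewer, 17 of them with a gene symbol and SSN3 among these. NCE103 (YNL036W), the carbonic anhydrase that turns carbon dioxide into bicarbonate, fell most: it read 0.39 and 0.77 in 1:609 cdk8-del, against 2.58 and 2.82 in 1:609, a difference of -2.12 ± 0.10, or 4.36-fold lower (adjusted p = 4.73e-08). It was above the pool in both strains. PYC1, a pyruvate carboxylase that joins bicarbonate to pyruvate with biotin as cofactor, read 0.54 and 0.32 in 1:609 cdk8-del and 1.81 and 1.69 in 1:609, a difference of -1.32 ± 0.06. CPA1, a subunit of the carbamoyl phosphate synthase of the arginine pathway, read -0.41 and -0.22 in 1:609 cdk8-del and 0.47 and 0.61 in 1:609, a difference of -0.85 ± 0.06. These 3 are the called members of a list of 9 probes for bicarbonate use and carboxylases; over all probes 0.313% were called lower. The biotin-dependent acetyl-CoA carboxylase gene ACC1 was at -0.52 ± 0.07, under the fold limit, and PYC2, the paralog of PYC1, was at -0.04 ± 0.07.

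The genes of biotin synthesis and uptake fell together. BIO3, BIO4 and BIO5 lie side by side on 1 chromosome and encode an aminotransferase, the dethiobiotin synthetase and a transporter of biotin precursors. BIO3 read -1.17 and -0.64 in 1:609 cdk8-del, against 0.75 and 0.77 in 1:609. BIO4 read -0.54 and 0.09 in 1:609 cdk8-del, against 1.19 and 1.19 in 1:609, and BIO5 read -1.03 and -0.23, against 0.68 and 0.63. Each of the 3 was above the pool on both 1:609 arrays and spread more on the deletion arrays, with the a array the lower one. Differences were -1.67 ± 0.13 for BIO3, -1.41 ± 0.16 for BIO4 and -1.29 ± 0.17 for BIO5. BIO2, the biotin synthase gene that lies elsewhere, fell with them (-1.22 ± 0.13), and so did VHT1, the plasma membrane importer of biotin (-0.93 ± 0.10), whose call was lost without the replicate block (adjusted p = 0.0423). These 5 are all the falls in a list of 33 probes for NAD, thiamine and biotin synthesis. Over all probes 0.313% were called lower and 2.33% higher. The list also held 2 rises, both in NAD metabolism: the nicotinamidase gene PNC1 (1.36 ± 0.11) and BNA1 (0.78 ± 0.08). No thiamine gene was called, the nearest being the transporter gene THI7 at 0.70 ± 0.05.

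The other falls were scattered over several pathways. SIP5, whose protein binds the Snf1 kinase, read 0.18 and 0.43 in 1:609 cdk8-del and 1.65 and 2.19 in 1:609, a difference of -1.62 ± 0.08. YNL134C and DLD3, a D-lactate dehydrogenase, fell by 1.23 and 1.17 on the log2 scale. ADE17, an enzyme near the end of purine synthesis, read -1.52 and -1.22 in 1:609 cdk8-del and -0.37 and -0.29 in 1:609. YJR154W and AAD10, an aryl-alcohol dehydrogenase gene next to it, were at -1.09 ± 0.08 and -0.998 ± 0.07. HIS4, of the histidine pathway, fell by 0.93 on the log2 scale. Under the scaling on external controls 8 of the 17 falls with a symbol stayed negative but missed the fold limit, namely DLD3, YJR154W, ADE17, AAD10, VHT1, HIS4, GND1 and CPA1, of which the last lay at -0.50.

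Several large lists had hardly a called member and a median under 0. Of 50 Gcn4 targets in amino acid synthesis only HIS4 was called, but 35 were lower and 1 higher at an unadjusted p under 0.05, with a median of -0.26, and GCN4 itself was at -0.51 ± 0.07. Of 32 purine and pyrimidine genes ADE17 alone was called, 22 were lower and 5 higher at that level, and the median was -0.36. Of 90 ribosome biogenesis genes 0 were called and 59 were lower and 0 higher at that level, with a median of -0.20 and NSR1 lowest at -0.58. Scaled on the external controls these 3 medians became 0.13, 0.02 and 0.17, below the all-probe median of 0.46 in each case, so their sign rests on the scaling and their place under the typical gene does not. The arginine list was divided: of 15 probes 2 were called higher and 1 lower, 3 were higher and 6 lower by unadjusted p, and the median was -0.004. ARG3, the ornithine carbamoyltransferase gene, was at 0.91 and 0.97 in 1:609 cdk8-del and -0.73 and -0.62 in 1:609, a rise of 1.62 ± 0.07. ARG8, which acts earlier in that pathway, rose by 1.03 ± 0.08, while CPA1 fell as given above. The 37 proteasome genes had 0 calls and a median of -0.06; their median level against the pool was 0.29 and 0.27 in 1:609 cdk8-del and 0.31 and 0.31 in 1:609.

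The mating type genes set the strains beside each other. The alpha-specific genes were under the pool in both strains, and 2 of the 4 were called higher in the deletion strain, against 2.33% of all probes. MF(ALPHA)2, 1 of the pair of genes for the alpha mating pheromone, read -3.06 and -2.45 in 1:609 cdk8-del and -4.41 and -4.05 in 1:609, a rise of 1.48 ± 0.14 that left it far under the pool. SAG1, the alpha-agglutinin, read -1.16 and -0.86 in 1:609 cdk8-del and -2.01 and -2.23 in 1:609. STE3, the receptor for a-factor, differed by 0.22 ± 0.07 and MF(ALPHA)1 by 0.09 ± 0.12, neither called. Of the 7 a-specific genes 0 were called under this scaling, with differences between -0.10 for ASG7 and 0.32 for STE2; on the external control scale STE2 and MFA1 passed the limits (0.83 and 0.77).

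A share of the called rises has no gene name here. Of the 149 probes 41, or 27.5%, have no symbol in the annotation used, against 16.6% of all probes. Their median rise was 0.89, against 1.14 for the 108 with a symbol, and in 1:666 and 1:594 the same 41 probes had median cdk8-del effects of 0.36 and 0.46, where the 108 had 1.64 and 1.08. Only 9 of the 41 were called higher in 1:666 and 10 in 1:594, against 91 and 90 of the 108. The split by symbol is not sharp, since some of the 108 had effects like those of the unnamed probes. YDR098C-B rose by 0.90 in 1:609, against effects of 0.33 in 1:666 and 0.49 in 1:594. For YGR161C-D the effects were 0.87, 0.31 and 0.46, and for YAR009C 0.95, 0.21 and 0.54. Whether such probes, named or unnamed, share sequence with each other was not tested, so the 149 probes may stand for fewer separate genes.

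The same deletion was made in 1:666 and in 1:594, on other arrays but against the same pool and with the same order of dyes. There 234 probes (3.66%) were called higher and 46 (0.72%) lower with cdk8-del in 1:666, and 141 (2.21%) higher and 39 (0.611%) lower in 1:594, in all 4.38% of probes in 1:666 and 2.82% in 1:594. Of the 149 rises in 1:609, 100 were also called in 1:666, which is 67.1% of the 1:609 list and 42.7% of the 1:666 list, and 100 in 1:594, or 67.1% and 70.9%. Of the 20 falls 17 were called in each, which is 85% of the 1:609 list and 37% and 43.6% of the other lists. All 3 truncations shared 96 rises and 15 falls, and 0 probes were called in opposite directions. Over 6388 probes that share arrays, pool and dye order within a truncation, the effect in 1:609 correlated at r = 0.836 with that in 1:666 and 0.754 with that in 1:594, given as a description. The 149 rises had a median of 1.002 in 1:609, 1.39 in 1:666 and 0.99 in 1:594.

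The differences between these effects were tested as interaction terms in limma. Against 1:666, 45 probes differed (0.704%), 37 of them (0.579%) with a lower effect in 1:609 and 8 (0.125%) with a higher one. General stress genes account for 13 of the 37, and 20 of the 37 were called higher in 1:609 itself. HSP12 rose by 1.75 in 1:609 and by 3.95 in 1:666 (difference -2.20 ± 0.26, adjusted p = 0.00149). HSP26 rose by 2.75 and 4.32, SPI1 by 2.04 and 3.66 and MSC1 by 1.51 and 3.09, with adjusted p of 0.00558, 0.00943 and 0.0017. These 4 genes rose in both truncations and by less in 1:609. With CDK8, HSP12 (0.96 and 1.25, against -0.27 and 0.08), HSP26 and MSC1 were already higher in 1:609 than in 1:666. SPI1 lay alike (-0.89 and -0.78, against -0.77 and -0.93). The other general stress genes outside the 13 had no called difference, which does not make their effects equal. YGP1 rose by 3.61 and 3.81 (difference -0.20 ± 0.14), and RTC3 by 2.82 and 3.92 (difference -1.10 ± 0.25, adjusted p = 0.0239 in limma). The list's median effect was 1.31 in 1:609 and 1.85 in 1:666. SPI1 lost the call of its difference whichever of the 8 arrays was left out, and HSP26, MSC1 and HSP12 lost theirs without some of them. These calls need the pairing: without the replicate block only MET17 was called against 1:666, and leaving out 1 array gave between 12 and 47 calls.

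In the other direction, MF(ALPHA)2 rose by 1.48 in 1:609 and was at -0.57 in 1:666 (difference 2.05 ± 0.21, adjusted p = 0.00063), and SAG1 rose by 1.12 and was at -0.11. PHO84, the phosphate transporter gene, was at 0.02 in 1:609 and -0.97 in 1:666, YHB1, a flavohaemoglobin, at -0.06 and -1.02, and AAD3 at -0.58 and -1.89. With CDK8, PHO84 was already lower in 1:609 (-2.45 and -2.64) than in 1:666 (-1.69 and -1.56). So was YHB1 (-2.51 and -2.34, against -1.23 and -0.99), while AAD3 lay closer (-0.38 and -0.42, against -0.215 and -0.49). In levels, MF(ALPHA)2 lay at -3.06 and -2.45 in 1:609 cdk8-del and -4.41 and -4.05 in 1:609, but at -1.58 and -1.74 in 1:666 cdk8-del and -1.22 and -0.97 in 1:666.

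Against 1:594, 13 probes differed (0.204%), 11 (0.172%) with a higher and 2 (0.0313%) with a lower effect in 1:609, and 8 without the replicate block. MET17 stood apart from both truncations: its cdk8-del effect was 0.28 in 1:609, 4.46 in 1:666 and 4.10 in 1:594. By level it was near the pool in 1:666 cdk8-del (-0.17 and 0.07) and 1:594 cdk8-del (-0.60 and -0.27), and far under it in 1:609 cdk8-del, 1:609, 1:666 and 1:594, all at or below -4.33. MET17 is a marker gene, and the marker gene LYS2 also differed in level between truncations. LYS2 read 2.69 to 3.41 in 1:609 and 1:594 with or without cdk8-del. It read 0.16 and 0.09 in 1:666 and -0.11 and -0.09 in 1:666 cdk8-del. Whether the strains carry different marker alleles was not tested. ASP3-3, an asparaginase gene with near-identical copies, differed by 1.44 ± 0.08 between 1:609 (0.14) and 1:594 (-1.30), and YLR161W by 1.10 ± 0.09. By level, the strain that stood apart in both genes was 1:594 with CDK8. ASP3-3 read -0.50 and -0.41 there and at or below -1.47 on every other array of the series. YLR161W read 0.26 and 0.15 there and at or below -0.408 on every other array. By locus name ASP3-3 (YLR158C) and YLR161W lie near each other, so they may not be separate changes. Of the 11 probes with a higher effect in 1:609 only 4 have a symbol, and whether the others read the same stretch was not tested. Why 1:594 differs at these genes was not tested. FCP1 (0.30 and -0.66), YFL064C (0.30 and -0.73) and CUP1-2 (-0.14 and 0.78), a metallothionein gene with an identical copy, passed the test with the block and not without it, and YFL064C also failed it whichever of the 8 arrays was left out. Of the 13 probes 0 were called in 1:609 itself.

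**Figure D4:**
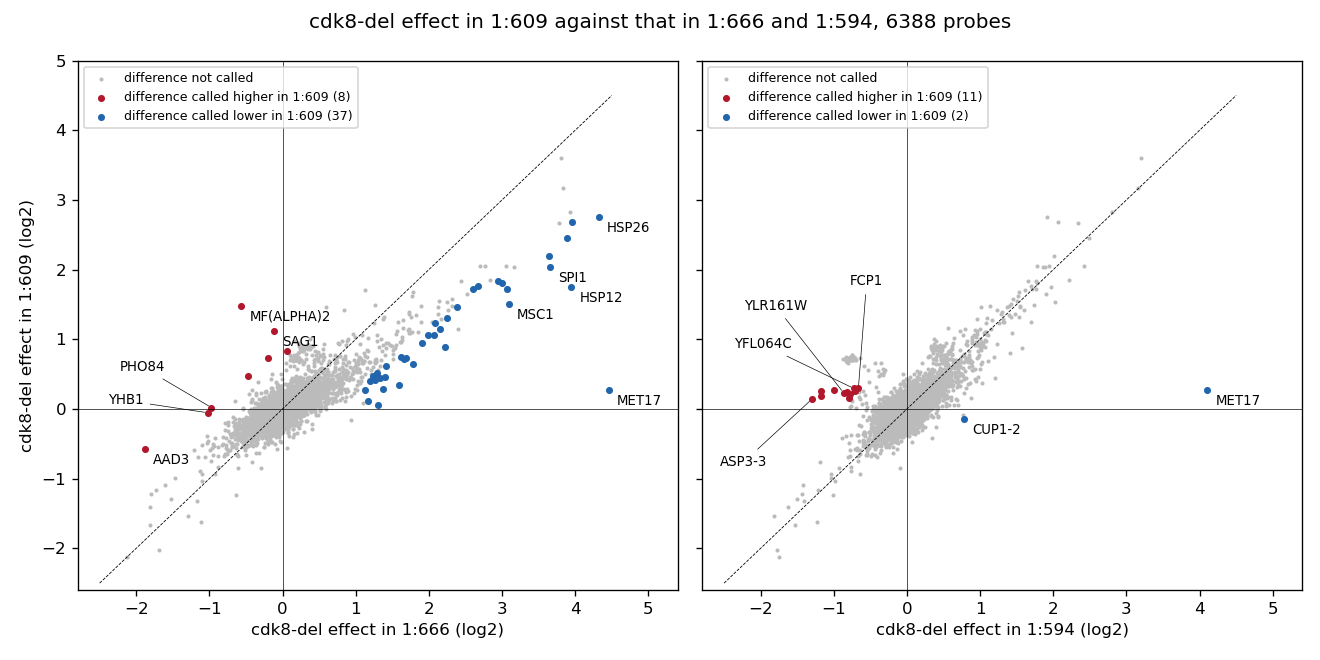
The cdk8-del effect in 1:609 (y axis, log2) against that in 1:666 (left, x axis, log2) and in 1:594 (right, x axis, log2) for 6388 probes, with a dashed line of equal effects; red and blue mark probes whose difference was called, higher or lower in 1:609. In the left panel 59 of the 149 called rises lie above the line, HSP12 lies under it at 3.95 and 1.75, and MET17 lies at the far right of both panels.

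Set beside 1:713, which has CDK8 and was read against the same pool, YGP1 and YRO2 were much lower in 1:609. Not all of the 10 largest rises were: ALD3 averaged 0.17 in 1:609 and 0.10 in 1:713, and HSP26 averaged -0.22 and -0.45. YGP1 lay at 0.94 and 1.02 in 1:609 cdk8-del, -2.77 and -2.48 in 1:609 and -0.26 and -0.03 in 1:713. YRO2 lay at -0.21 and 0.08 in 1:609 cdk8-del, -3.30 and -3.17 in 1:609 and -0.32 and -0.30 in 1:713. For YRO2 the deletion arrays were thus within 0.4 of 1:713, and for YGP1 they were above it. HSP12 lay at 2.82 and 2.89 in 1:609 cdk8-del, 0.96 and 1.25 in 1:609 and 0.98 and 0.91 in 1:713, where 1:609 and 1:713 lay together and the deletion above both. NCE103 lay at 0.39 and 0.77 in 1:609 cdk8-del, 2.58 and 2.82 in 1:609 and 1.43 and 1.89 in 1:713, with the deletion lowest. BIO3 was at 0.67 and 0.59 in 1:713, near its 0.75 and 0.77 in 1:609. These are levels side by side, with no test.

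**Figure D5:**
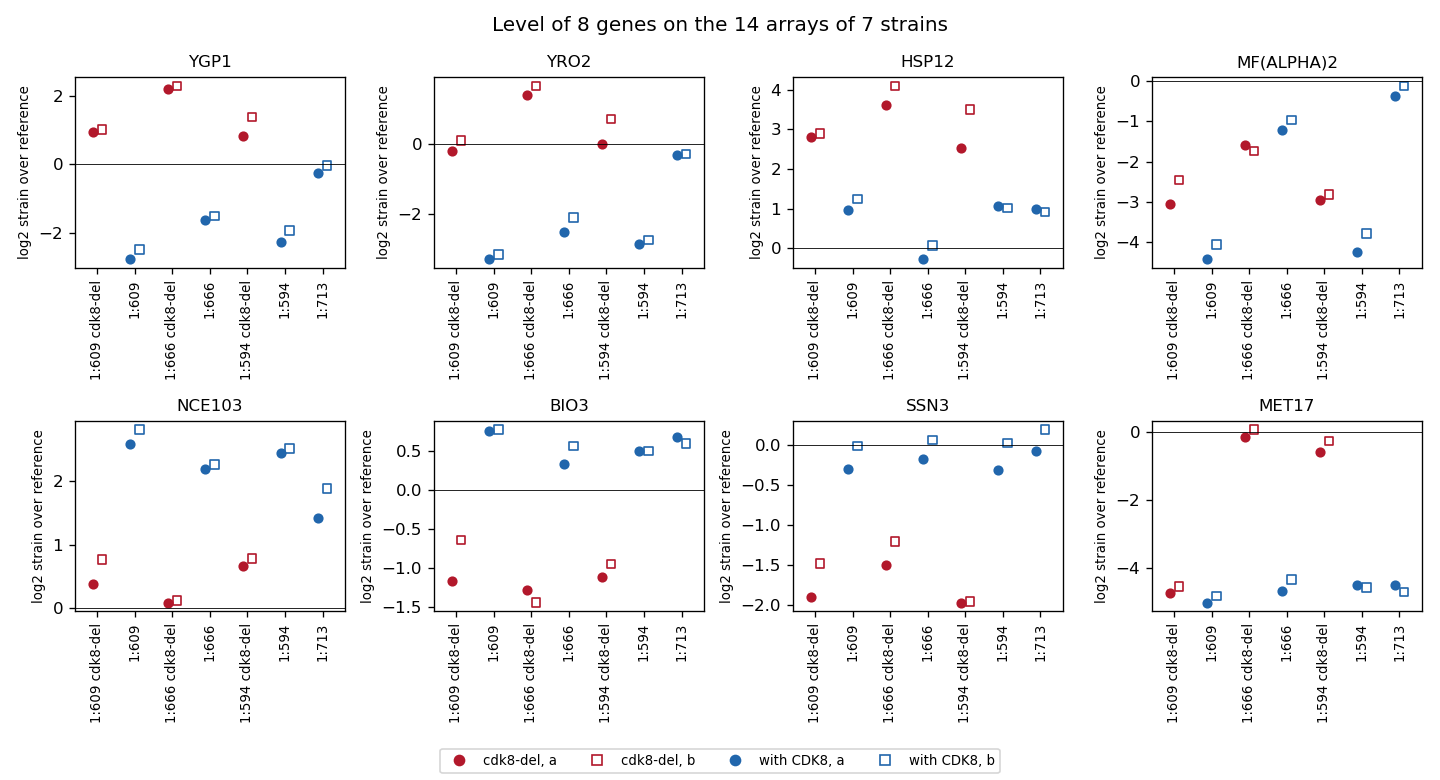
Log2 ratio of strain over reference pool (y axis) for 8 genes on the 14 arrays of 7 strains (x axis), with cdk8-del strains in red and strains with CDK8 in blue, filled circles for a arrays and open squares for b arrays. SSN3 is lowest in the 3 cdk8-del strains, YGP1 and YRO2 are lowest in 1:609, 1:666 and 1:594 with CDK8, and MET17 is near 0 in 1:666 cdk8-del and 1:594 cdk8-del alone.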

How the data were processed

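Each array is a 2-colour array of RNA from 1 strain and from the reference pool. The authors deposited, per the file headers, scanner intensity for each channel: the mean of each spot and the median of its local background, not subtracted. The deposited matrix holds log2 ratios normalised by the authors to total mRNA, per the series description; set against the scanner values, all 16 columns run as strain over reference (r between 0.621 and 0.977 over probes), centred at medians between -0.012 and 0.018, and they served as an alternative. The sources used here do not give their background treatment.

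Of 15552 spots, 12776 are gene spots, 2 for each of 6388 probes; 5326 probes carry 1 gene symbol in the platform annotation, 1062 none, and 58 symbols were updated through RefSeq (assembly R64, names only). Background was corrected with normexp (offset 50), ratios were scaled by lowess (span 0.4) over gene spots (so that a typical gene lies at 0), turned to strain over reference and averaged per probe. One limma model (limma 3.58.1, R 4.3.3) held a mean for each of 8 strains and the replicate letter as a block (7 residual and 4.89 prior degrees of freedom); tests are two-sided with Benjamini-Hochberg adjustment over 6388 probes. A probe counts as above background at 3 background standard deviations. The limits of p and fold are those of the series description, which does not say whether its p is adjusted.

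The letter pairs the arrays: after removing strain means, same-letter arrays of all 28 pairs of strains correlated at 0.599 to 0.914, and at 0.805 for 1:609 with 1:609 cdk8-del. The letter is also the dye orientation, so the block removes both. On simulated data for the cdk8-del effect in 1:609 over 6388 probes, 50 of 50 probes changed by 2-fold were called with the block and 41 of 50 without, and 0 of 6188 unchanged ones by either. The simulation gave every strain the same letter effect, as the block assumes. It therefore cannot tell whether the calls that need the block are sound.

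Named genes were the 10 largest called rises and 10 largest falls with a symbol, the 5 largest of each interaction in each direction, up to 4 called members of each of 46 gene lists, and the kinase module, FCP1, marker and mating type genes; members that were not called, and MSN4, GPD1, GSY2, TPS1, TPS2, UGP1, SOD2, HSP104 and BNA1, were picked after their values were seen. The members and lists were chosen with earlier results of these data known. Lists are described by counts and medians and were not tested. A bound replaces the fold where a gene was not above background on either array of a strain, except for PUT4. It is the bright strain's mean against the higher, per array, of the gene's own signal and the lowest signal among probes above background. It uses the strain channel alone, which for PUT4 did not match the ratio to the pool, so it is not a strict limit. Alternatives were another background correction, scaling, filter or limit, the deposited values, the 4 arrays alone, the fit without the block and leaving out each array. Figures were drawn in matplotlib 3.10.9 under Python 3.11.15.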

Additional observations from a re-analysis of the deposited data

Results flagged for a closer look

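The cdk8-del effect differed between 1:609 and another truncation in the genes below, by an interaction term tested in limma over 6388 probes. None of these differences was explained here, and MET17 is also a strain marker gene. Minus 1:666, the log2 difference of effects was -4.18 for MET17, -2.20 for HSP12, -1.62 for SPI1, -1.58 for MSC1 and -1.57 for HSP26, and 2.05 for MF(ALPHA)2, 1.31 for AAD3, 1.23 for SAG1, 0.99 for PHO84 and 0.97 for YHB1. Minus 1:594, it was -3.83 for MET17 and -0.92 for CUP1-2, and 1.44 for ASP3-3, 1.10 for YLR161W, 1.02 for YFL064C and 0.96 for FCP1. Each group holds 2 arrays, too few to look for a single array that stands apart.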

How the results depend on the processing

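With 2 arrays a strain, letter and dye order inseparable and no stated separate cultures, small differences rest on the pairing. The cdk8-del effect in 1:609 had 169 calls, and 104 without the replicate block; the difference from 1:666 had 45 and 1, and that from 1:594 had 13 and 8. Scaling on external controls gave 581 calls in 1:609, and an adjusted p under 0.05 with no fold limit gave 1898. The difference from 1:666 had 75 calls under plain background subtraction and 17 under median centring; that from 1:594 had 6 under median centring. Leaving out 1 array gave 159 to 185 calls in 1:609, 275 to 299 in 1:666, 149 to 198 in 1:594, 12 to 47 for the difference from 1:666 and 8 to 13 for that from 1:594. For 1:666 the count fell past 1.5 times without 1:609 a (18) or b (17), 1:609 cdk8-del b (12), 1:666 b (23), 1:666 cdk8-del a (14) or b (19), and for 1:594 without 1:609 b (8). The cause of these moves was not tested. The other alternatives kept the count in 1:609 between 152 and 228. Of the 86 named genes 58 were called in 1:609, and 43 of these kept that call under every alternative run; none reversed. Without 1:609 cdk8-del a, QCR10 (0.75), TPO1 (0.73) and HSP42 (0.81) lost their calls, and so did QCR10 and TPO1 under median centring (0.75 in each). TIP1 was uncalled under plain subtraction (0.76), median centring (0.69), without 1:609 b (0.76) and without 1:609 cdk8-del b (0.66). TPS1 lost its call in 6 settings (0.68 to 0.79), HSP104 without the block, under median centring (0.72) and without 1:609 cdk8-del a (0.76), SOD2 under median centring (0.76), and BNA1 without 1:609 a (0.72) or 1:609 cdk8-del b (0.72), where 1 rise was left in its list. The purine and pyrimidine list had 2 falls without 1:609 a, and the glycolysis list 4 rises with the deposited ratios. Among the differences from 1:666, that of SPI1 lost its call under plain subtraction (-1.74, adjusted p = 0.0137), median centring (-1.57, 0.0798) and each array left out (-1.83 to -1.41). Median centring also ended those of HSP26 (-1.53), SAG1 (1.26) and AAD3 (1.33). Arrays left out ended HSP26 in 6 cases, SAG1 in 5, MSC1 and YHB1 in 4 each, AAD3 in 2 and HSP12 in 1, without 1:609 cdk8-del b (-2.08); MF(ALPHA)2 and PHO84 lost theirs without the block alone, and MET17 never. Among those from 1:594, YFL064C lost its call under plain subtraction (1.23), median centring (1.02), the deposited ratios (1.08) and each array left out (0.96 to 1.09), CUP1-2 under median centring (-0.94) and 7 of the arrays left out (-0.98 to -0.79), YLR161W under median centring (1.15), and FCP1 under plain subtraction (0.68), median centring (0.90) and without 1:609 b (0.90) or 1:609 cdk8-del b (0.91); ASP3-3 and MET17 never did. Without 1:609 a, AAD3 passed the limits (-0.78). Signal near background limits SSN3 to an approximate bound, and PUT4 was near background in 1:609.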

Other observations

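Some further gene groups had 0 calls by limma in 1:609 and a median away from 0. At an unadjusted p under 0.05, 8 of 13 histone genes were higher and 0 lower, with a median difference of 0.27 and HHF1, a gene for histone H4, highest at 0.59. Of 43 genes for mitochondrial ribosomal proteins 18 were higher and 1 lower at that level, with a median of 0.12. Cytosolic ribosomal protein genes ran the other way, with 0 higher and 35 lower of 122 and a median of -0.10. Of 28 ergosterol genes 3 were higher and 15 lower, with a median of -0.19, and of 10 lysine genes 0 were higher and 7 lower, with a median of -0.27. Over all probes 1362 were higher and 1267 lower at that level. Scaled on the external controls, where all probes had a median of 0.46, the medians were 0.69 for histones, 0.55 for mitochondrial and 0.32 for cytosolic ribosomal proteins, 0.19 for ergosterol and 0.09 for lysine genes.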
